A study of Mus musculus with 8 samples.

Results

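Clec4n, Clec4d, Clec4e, Clec4a1, Clec4a2, Clec4a3, Clec7a, Treml4, Trem1 and Trem2 encode surface receptors of myeloid cells that belong to the C-type lectin and TREM families. The 10 genes were matched by symbol, out of 19382 genes listed in either of the deposited tables, and all 10 were listed in both. The set was selected on these data: it was chosen because Treml4 and Clec4n were among the largest rises with auranofin in the stellate cell culture. The difference between auranofin and control in that culture is therefore given as a description of these genes, with no test. The macrophage culture was not used for the choice and was tested.

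RNA sequencing was performed on 8 libraries from C57BL/6 mouse cells, 2 for each group. Activated hepatic stellate cells (AHSC), the collagen-producing cells of the injured liver, were primary cells isolated by density gradient and kept as control or exposed to 0.03 µM auranofin, an oral gold compound, for 12 h. The labels call the control cells untreated, whereas the study's legend names vehicle. The age of these mice was not given in the sources used here. Bone marrow-derived macrophages (BMDM) from 8-week-old mice were differentiated with M-CSF for 7 days. The BMDM of both groups received 100 ng/ml LPS and 1 mM ATP, which prime and trigger the NLRP3 inflammasome, and those of the auranofin group also received 0.1 µM auranofin by the labels, for 1 h. The study's legend for the macrophage sequencing gives another dose, so the dose in BMDM is uncertain. No genetic change was described in any group, and BMDM without LPS and ATP were not analysed here. The labels do not say whether the 2 libraries of a group came from separate mice, so their spread may be technical. Levels are given as FPKM, the fragments of a gene scaled to transcript length and library size. Differences are given on the log2(FPKM + 1) scale, which understates changes of genes with low levels. The tables of AHSC and BMDM were made separately and differ in dose and time, so no test was run between them.

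C-type lectin receptors of myeloid cells bind sugars and glycolipids of microbes and of dead cells. Clec4n (Dectin-2), Clec4d (MCL) and Clec4e (Mincle) signal through the adaptor FcRγ, encoded by Fcer1g, whereas Clec7a (Dectin-1) carries its own signalling motif. All of them converge on the kinase Syk and on Card9, which leads to NF-kB and cytokine genes. TREM receptors pair with the adaptor DAP12, encoded by Tyrobp, and also use Syk. In the liver these receptors are known from Kupffer cells, the resident macrophages, and from monocyte-derived macrophages.

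The AHSC libraries held macrophage transcripts beside those of stellate cells. The 11 macrophage markers summed to 8263 and 8449 FPKM in the control libraries, and the 12 stellate cell markers to 4399 and 4533 FPKM. Most of the macrophage sums came from Lyz2, with 5519 and 5554 FPKM, so the sums do not give the shares of the cell types. Cd68 alone had 645 and 670 FPKM, and Acta2 had 956 and 965 FPKM. The 5 Kupffer cell markers summed to 2223 and 2201 FPKM, whereas the hepatocyte markers reached at most 1.76 FPKM. In a culture of several cell types, more cells of a type and more RNA per cell cannot be told apart. With auranofin the macrophage markers summed to 8044 and 8115 FPKM and the Kupffer cell markers to 2447 and 2308 FPKM. Of the 11 macrophage markers 9 were lower, with log2 differences from -0.19 to 0.09 and a median of -0.05, and 0 passed the limma test, with 3 at an unadjusted p under 0.05. Neutrophil markers were low but uneven, with sums of 25.3 and 10.96 FPKM in control and 10.6 and 87.2 FPKM in auranofin replicates 1 and 2. In BMDM, auranofin replicate 1 stood apart. Of 4245 genes with at least 10 FPKM, 8.67% and 8.88% differed at least 2-fold between it and the control libraries, against 0.353% and 0.283% for auranofin replicate 2. Between the 2 control libraries 0.33% did, and between the 2 auranofin libraries 9.02%. By this measure auranofin replicate 2 was about as near to the controls as they were to each other. Why the 2 auranofin libraries differed was not tested. The BMDM level of each receptor gene is therefore given below for both auranofin libraries. The depth, read from the size of a single fragment at low levels, was between 27500000 and 39400000 fragments per library.

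In the AHSC control libraries the receptor genes spanned levels from 0.987 to 492 FPKM. Clec7a was the highest with 492 ± 14.3 FPKM (SD, n = 2), followed by Trem2 with 224 ± 11.8 FPKM (SD, n = 2). Clec4d and Clec4n came next and overlapped, with 99.1 ± 5.16 and 92.8 ± 8.87 FPKM (SD, n = 2). Treml4 had 15.2 FPKM. Clec4a3 and Clec4e, with 6.95 and 6.80 FPKM, could not be ordered, since their libraries overlapped. Clec4a2, Clec4a1 and Trem1 followed with 3.55, 3.04 and 0.987 FPKM, each below the gene before it in both libraries. With auranofin Clec4n moved from the 4th to the 2nd place, at 263 ± 14.0 FPKM (SD, n = 2), above Trem2 in both libraries.

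**Figure D1:**
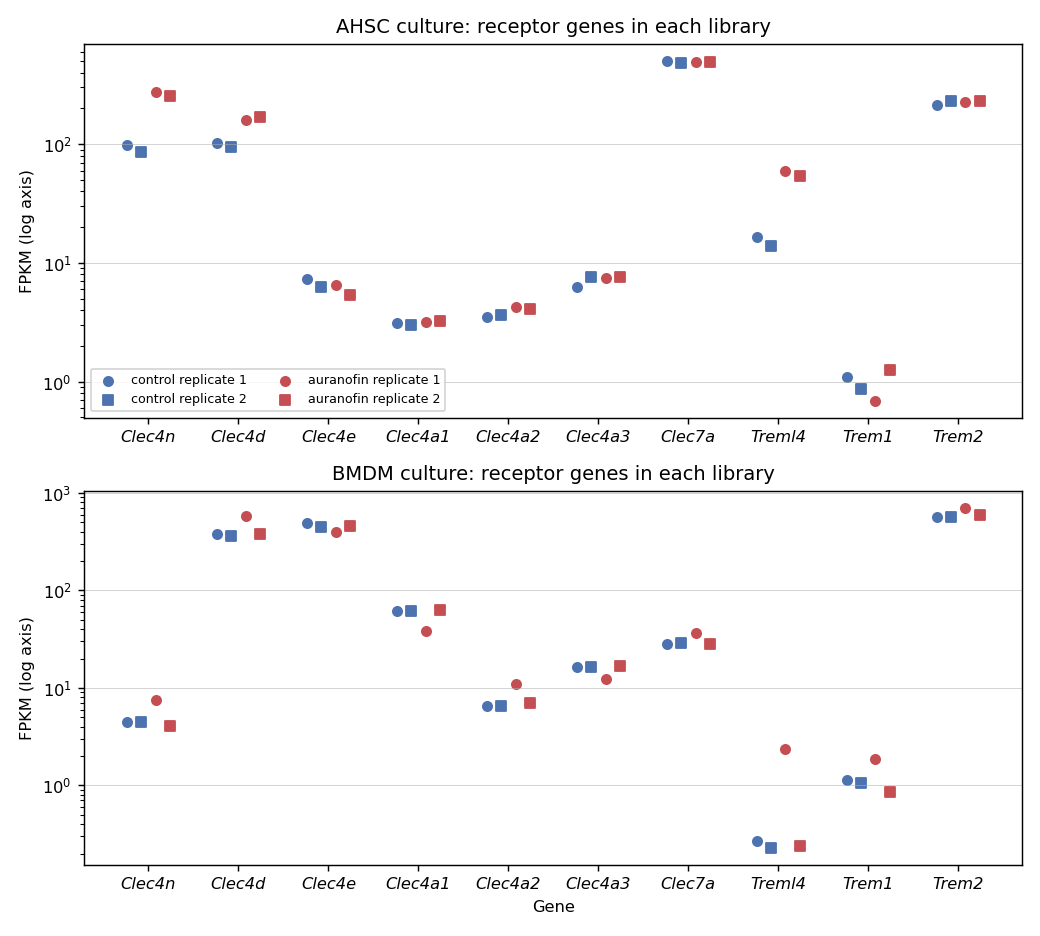
FPKM on a log axis (y) of each receptor gene (x) in the AHSC culture (top) and the BMDM culture (bottom). Each point is 1 library, blue for control and red for auranofin, with circles for replicate 1 and squares for replicate 2. Treml4, Clec4n and Clec4d have both red points above both blue points in AHSC, and Treml4 in BMDM lies at 2.37 FPKM in auranofin replicate 1 and between 0.229 and 0.270 FPKM in the other libraries.

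In the AHSC culture, 3 receptor genes were at least 1.5-fold higher with auranofin, namely Treml4, Clec4n and Clec4d, and 0 were at least 1.5-fold lower. Of the 12149 genes tested 0.642% were at least 1.5-fold higher. The choice of the genes used this contrast, so nothing is read from that count. The remaining tested receptor genes differed by between -0.17 and 0.19 on the log2 scale, and the median over the 9 tested was 0.10, beside 0.00 over all genes tested. Both auranofin libraries lay above both control libraries in 5 of the 9, and 4 overlapped. Groups did not overlap in 50.1% of all genes tested. Trem1 had a mean under 1 FPKM, the limit for testing, and was left out of these counts.

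Clec4n, the receptor for fungal α-mannans, had 99.1 and 86.5 FPKM in the AHSC control libraries, against 273 and 253 FPKM with auranofin. Every auranofin value was more than 2-fold above every control value. The ratio of the means was 2.84, and the log2 difference 1.496. Clec4d binds mycobacterial glycolipid and forms a complex with Mincle on the cell surface. It had 103 and 95.4 FPKM with control against 159 and 169 FPKM with auranofin, a ratio of 1.65 and a log2 difference of 0.72. Its groups did not overlap either, and the gap between them was wider than the spread within each. Clec4e, the partner of Clec4d and a sensor of dead cells as well as of mycobacteria, had 7.29 and 6.32 FPKM with control and 6.50 and 5.37 FPKM with auranofin. These libraries overlapped, and the log2 difference was -0.17.

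Because the 3 genes share an adaptor and lie side by side, their levels were also compared within each library. The ratio of Clec4d to Clec4e was 14.1 and 15.1 in the AHSC control libraries and 24.4 and 31.5 in the auranofin libraries. The ratio of Clec4n to Clec4d was 0.965 and 0.907 with control and 1.72 and 1.499 with auranofin. Thus Clec4n changed from about the level of Clec4d to above it in both auranofin libraries, while the groups of Clec4e, next to Clec4d on the chromosome, overlapped. A ratio within a library does not depend on the total of that library. These ratios come from the contrast that chose the genes and carry no test.

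The inhibitory and orphan members of the Clec4a group were low and nearly level in AHSC. Clec4a2 (DCIR) carries an inhibitory ITIM motif that recruits phosphatases. It had 3.49 and 3.62 FPKM with control and 4.27 and 4.11 FPKM with auranofin, a log2 difference of 0.19. Clec4a1 had 3.09 and 2.99 FPKM against 3.16 and 3.26 FPKM. Both genes were higher in each auranofin library, by ratios of 1.18 and 1.06. Groups did not overlap, in either direction, in 50.1% of all genes tested in AHSC. Clec4a3 had 6.28 and 7.62 FPKM with control and 7.40 and 7.55 FPKM with auranofin, and its groups overlapped. The Clec4a genes are close paralogs, and how the authors' counting divided fragments between them was not tested.

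Clec7a, the receptor for fungal β-glucan, had 502 and 481 FPKM with control and 489 and 493 FPKM with auranofin. The auranofin values lay between the control values, with a log2 difference of -0.00. Thus the most abundant of the receptors showed no difference beyond the spread of its libraries. A RefSeq long non-coding RNA, Gm45969, overlaps Clec7a and was not listed in the tables.

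Among the TREM genes the groups were apart for Treml4 and overlapped for Trem1 and Trem2. Treml4 encodes a DAP12-coupled receptor of macrophages and dendritic cells that binds dead cells and enhances TLR7 signalling. It had 16.6 and 13.9 FPKM in the AHSC control libraries, against 60.0 and 53.5 FPKM with auranofin. The ratio of the means was 3.73 and the log2 difference 1.84. The 4 values fell into separate ranges by group. Trem2, the receptor for lipids and apolipoproteins on tissue macrophages, had 215 and 232 FPKM with control and 226 and 230 FPKM with auranofin. The auranofin values lay within the control range, with a log2 difference of 0.03. Trem1, the amplifier of neutrophil and monocyte inflammation, had 1.10 and 0.872 FPKM against 0.693 and 1.25 FPKM. Its higher auranofin value was in replicate 2, the library with the higher sum of neutrophil markers, and their part in it was not tested.

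**Figure D2:**
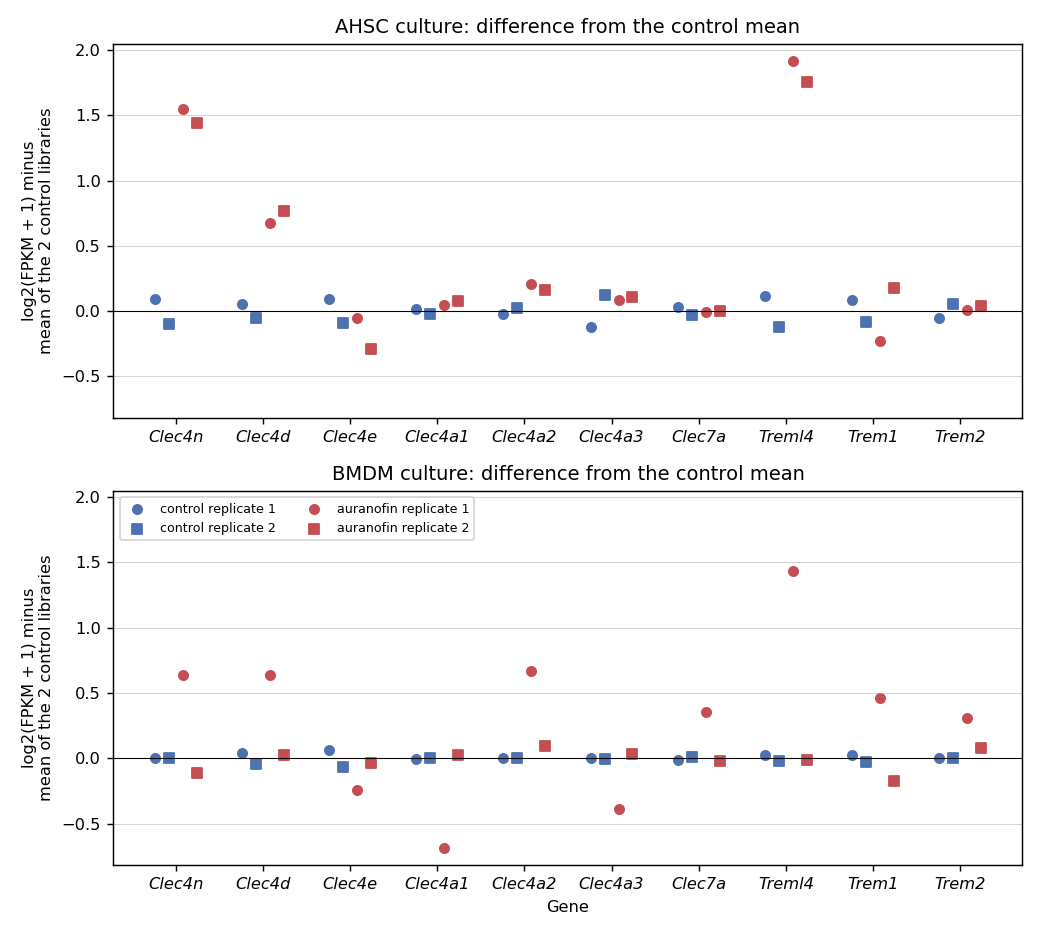
Difference of each library from the mean of the 2 control libraries, on the log2(FPKM + 1) scale (y), for each receptor gene (x) in AHSC (top) and BMDM (bottom). Blue points are control and red points auranofin libraries, with circles for replicate 1 and squares for replicate 2. In AHSC the red points of Treml4, Clec4n and Clec4d stand together, whereas in BMDM the red circles lie away from 0 and the red squares near it.

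The receptor genes lie in 3 places of the mouse genome (GRCm38, mm10). Clec4a1, Clec4a3, Clec4a2, Clec4n, Clec4d and Clec4e lie on chromosome 6 in a cluster of 368 kb, from chr6:122921848-123289871. Clec7a lies farther along the same chromosome, at chr6:129461591-129472785. Trem1, Treml4 and Trem2 lie on chromosome 17 in a cluster of 134.5 kb, chr17:48232713-48367176. Clec4n ends 15.1 kb before Clec4d begins, and Clec4d ends 6.5 kb before the left end of Clec4e. Of the 9 protein-coding genes of the Clec4 cluster 6 passed the limit of 1 FPKM in AHSC, and of the 7 in the Trem cluster 4 did. Along the Clec4 cluster the log2 differences in AHSC were 0.06, 0.10 and 0.19 for Clec4a1, Clec4a3 and Clec4a2. They were then 1.496 for Clec4n, 0.72 for Clec4d and -0.17 for Clec4e. In the Trem cluster, B430306N03Rik and Treml1, on the far side of Treml4 from Trem1, differed by 0.14 and 0.14, beside 1.84 for Treml4. At least 1.5-fold higher were 1 of the 4 genes tested in the Trem cluster and 2 of the 6 tested in the Clec4 cluster. Of all genes tested in AHSC 0.642% were. The receptor genes were chosen on this contrast, so nothing is read from these counts or from the positions. The long non-coding RNA Gm52308 overlaps Trem1 and Treml4 in RefSeq and was not listed in the tables. The library kit keeps the strand, but whether the counting used it was not given in the sources used here.

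**Figure D3:**
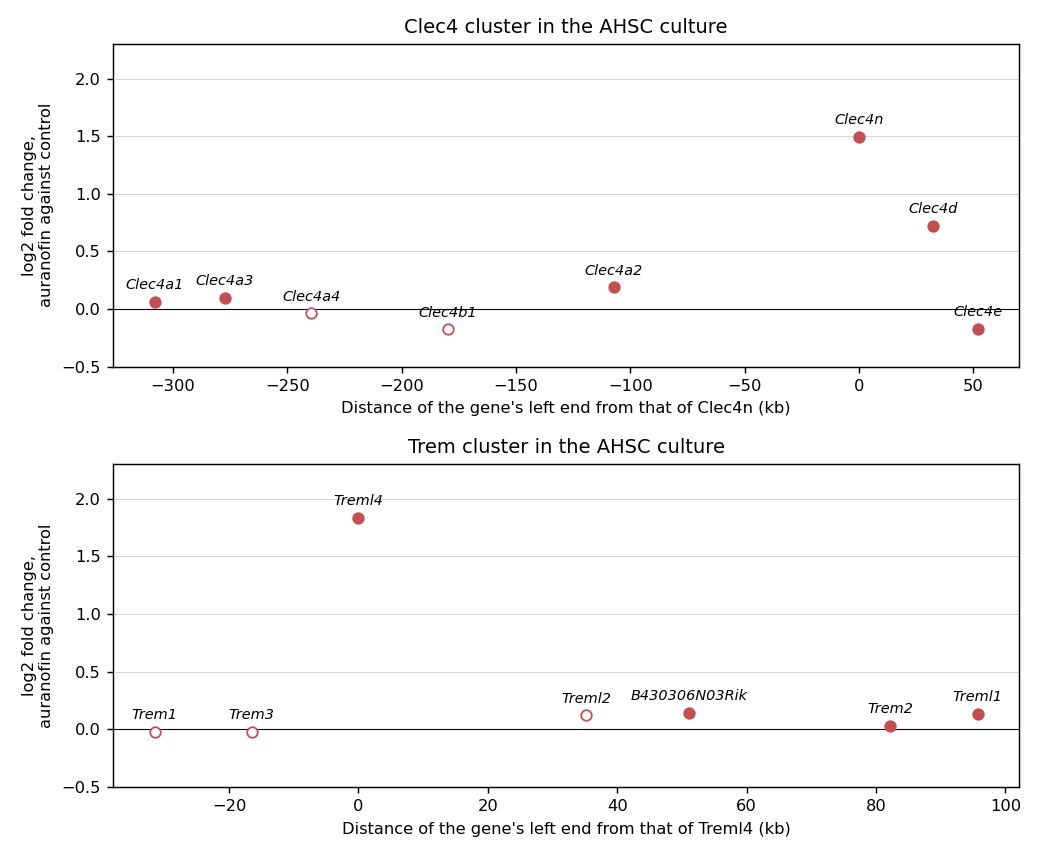
log2 difference between auranofin and control in AHSC (y) against the distance, in kb, of each gene's left end from that of Clec4n in the Clec4 cluster (top) and of Treml4 in the Trem cluster (bottom). Each point is 1 gene, filled where its mean was at least 1 FPKM and open where it was lower. Clec4n at 1.496, Clec4d at 0.72 and Treml4 at 1.84 stand above neighbours that lie between -0.18 and 0.19.

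The sequence before the start of these genes is shown for Treml4, and for Clec4d beside its neighbour Clec4e, whose groups overlapped. The sequences are from RefSeq (GRCm38.p6), printed 5′ to 3′ on the strand of the gene and ending at the last base before the gene's span. They lie at chr17:48264045-48264199 on the plus strand for Treml4, chr6:123261857-123262106 on the plus strand for Clec4d, and chr6:123289872-123290121 on the minus strand for Clec4e. Capitals mark a match to one of the motifs described after them.
Treml4: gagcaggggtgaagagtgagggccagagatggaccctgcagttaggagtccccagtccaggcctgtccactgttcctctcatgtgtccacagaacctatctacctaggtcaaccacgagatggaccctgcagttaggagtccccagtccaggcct
Clec4d: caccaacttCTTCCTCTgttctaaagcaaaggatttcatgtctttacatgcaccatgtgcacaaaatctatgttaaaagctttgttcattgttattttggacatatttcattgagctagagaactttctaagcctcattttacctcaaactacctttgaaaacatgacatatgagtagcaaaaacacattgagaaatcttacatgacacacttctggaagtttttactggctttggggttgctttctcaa
Clec4e: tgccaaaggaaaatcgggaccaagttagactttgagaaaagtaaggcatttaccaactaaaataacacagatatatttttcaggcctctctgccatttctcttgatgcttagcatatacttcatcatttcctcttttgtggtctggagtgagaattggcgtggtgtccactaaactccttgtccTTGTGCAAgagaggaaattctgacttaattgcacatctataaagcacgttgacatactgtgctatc

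For 9 of the 10 receptor genes, all but Clec4n, the 250 bases before 11 RefSeq starts were searched on both strands for 4 motifs, with N for any base. The core of the antioxidant response element, bound by NRF2, was written TGACNNNGC and was found in 10.2% of 32851 promoters of all genes and in 0 of the 11. A loose pattern for the AP-1 site, TGANTCA with any central base, was found in 6.75% of all promoters. It matched in that of Trem2 as TGAATCA, from position -9 to -3 before the start. The match is to this pattern and was not shown to be an AP-1 site. The core of the site of PU.1, the myeloid lineage factor, was written AGAGGAAG and was found in 3.67% of all promoters. It matched in Clec4d, from -241 to -234, and in Clec4a1, from -188 to -181. The C/EBP site, TTGCNNAA, was found in 9.56% of all promoters and in that of Clec4e, from -66 to -59. None of the 4 motifs shares a match with another in these promoters. A match is a description of the letters, and the lack of one covers only this window of 250 bases.

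The genes whose pattern over the 4 AHSC libraries was nearest to Treml4 were found among 12148 others by the root mean square difference of their centred log2 values. They were Hmox1 at 0.096, Gclm at 0.127, Clec4n at 0.172, Nqo1 at 0.193 and Gsta3 at 0.212. Hmox1 encodes heme oxygenase 1, Gclm a subunit of the enzyme that makes glutathione's precursor, and Nqo1 a quinone reductase. For Clec4n the nearest were Gclm at 0.051, Gsta3 at 0.069, Nqo1 at 0.073, Hmox1 at 0.102 and A530064D06Rik at 0.135. Treml4 took place 7 for Clec4n, and Clec4d place 26 for each of them. Over 4 libraries in 2 groups this measure mostly orders genes by the size of their difference, and the points share their libraries. In AHSC, Hmox1 had 391 and 368 FPKM with control and 1297 and 1141 FPKM with auranofin. In BMDM it had 82.7 and 86.7 FPKM with control, 4403 FPKM in auranofin replicate 1 and 85.3 FPKM in replicate 2. The same library held the high values of Gclm, 129 FPKM against 6.08, 6.12 and 6.72 FPKM.

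In the BMDM control libraries the order of the receptor genes was different, and no 2 neighbours in it overlapped. Trem2 was the highest with 566 ± 0.272 FPKM (SD, n = 2), followed by Clec4e with 472 ± 31.1 and Clec4d with 371 ± 16.1 FPKM (SD, n = 2). Clec4a1 had 61.9 FPKM, Clec7a 28.4 FPKM, Clec4a3 16.4 FPKM and Clec4a2 6.48 FPKM. Clec4n had 4.47 FPKM, Trem1 1.09 FPKM and Treml4 0.249 FPKM, at the bottom. Clec4n and Treml4, the genes that differed most in AHSC, were therefore among the 3 least abundant receptors in BMDM. The ratio of Clec4d to Clec4e was 0.773 and 0.798 in BMDM control libraries, where it was 14.1 and 15.1 in AHSC. The macrophage markers summed to 9794 and 9664 FPKM in BMDM control, and the stellate cell markers to 8.69 and 7.12 FPKM. The tables were normalized separately, so these levels are set side by side without a test.

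In BMDM, 0 of the 9 receptor genes tested passed limma with Benjamini-Hochberg adjustment, and 0 had an unadjusted p under 0.05. Over all 9232 genes 0.0108% passed, which is 1 gene, and 49 had an unadjusted p under 0.05. On simulated data the BMDM fit called 0 of 200 genes changed 2-fold and the AHSC fit 187 of 200, so nothing is read from the lack of calls in BMDM. None of the 9 was at least 1.5-fold apart between the groups. Both auranofin libraries lay above both control libraries in 2 genes, Trem2 and Clec4a2, and groups did not overlap in 38.8% of all genes tested. The median log2 difference over the 9 genes was 0.17, beside 0.09 over all genes. Against the control mean it was 0.36 in auranofin replicate 1, beside 0.18 over all genes, and 0.03 in replicate 2, beside 0.00. In replicate 1, 3 of the 9 were at least 1.5-fold above the control mean, beside 15.2% of all genes, and Clec4a1 was at least 1.5-fold below it. In replicate 2 it was 0 of the 9, beside 0.379% of all genes.

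Clec4d had 382 and 360 FPKM in BMDM control libraries, against 578 FPKM in the first auranofin replicate and 378 FPKM in the second. The value of replicate 2 lay inside the control range. The log2 difference was 0.33 with a standard error of 0.24 (adjusted p = 0.721 from limma). Clec4e, induced in macrophages by LPS, had 494 and 450 FPKM with control and 400 and 461 FPKM with auranofin. Replicate 1 was below both controls and replicate 2 between them, with a log2 difference of -0.14 (standard error 0.13). As a result the ratio of Clec4d to Clec4e was 1.45 in replicate 1 and 0.819 in replicate 2. Clec4n had 4.47 FPKM in both control libraries. It had 7.504 FPKM in the first auranofin replicate and 4.05 FPKM in the second. The auranofin libraries lay on either side of the controls, and the log2 difference was 0.26 with a standard error of 0.29 (adjusted p = 0.724 from limma).

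Clec4a2 had 6.47 and 6.48 FPKM with control and 10.9 and 6.98 FPKM with auranofin, a log2 difference of 0.38 (standard error 0.23). Clec4a1 had 61.8 and 62.1 FPKM with control, 38.1 FPKM in auranofin replicate 1 and 63.1 FPKM in replicate 2. Its log2 difference was -0.33 (standard error 0.27). Clec4a3 showed the same form, with 16.5 and 16.3 FPKM against 12.3 and 16.8 FPKM. Thus in replicate 1 the inhibitory Clec4a2 was higher than in the controls, whereas Clec4a1 and Clec4a3 were lower, and in replicate 2 they differed from the control mean by 0.09, 0.03 and 0.03 on the log2 scale. Clec7a had 28.2 and 28.6 FPKM with control and 36.7 and 28.03 FPKM with auranofin.

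Trem2 had 566 and 565 FPKM in BMDM control libraries and 699 and 596 FPKM with auranofin. Both auranofin values were above the controls, and the log2 difference was 0.19 with a standard error of 0.13 (adjusted p = 0.721 from limma). Trem1 had 1.13 and 1.05 FPKM against 1.88 and 0.857 FPKM, on either side of the controls. Treml4 had 0.270 and 0.229 FPKM with control, 2.37 FPKM in auranofin replicate 1 and 0.238 FPKM in replicate 2. Its mean was under 1 FPKM, and it was not tested. Depending on the transcript, between 811 and 1744 bases long, replicate 1 held between 67.3 and 144.7 fragments, whereas each other library held between 5.1 and 14.3. In replicate 1 Treml4 was thus 9.52-fold the control mean, and in replicate 2 it was 0.955-fold. The ranges of fragments cover only the length of the transcript and hold no interval for counting error.

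Without auranofin replicate 1, the log2 differences of Clec4n, Clec4a1, Clec4a3, Clec7a and Trem1 changed sign, to between -0.17 and 0.03, and 0 receptor genes passed. Where replicate 2 was left out instead, the fit assumed that the lone library varied like the controls. All 9 tested receptor genes then passed, but so did 5997 of the 9232 genes. The values of BMDM therefore rested on which auranofin library was read, and the group holds no other library.

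None of the adaptors and kinases of these receptors passed the test. Of 15 adaptor and signalling genes, all tested in AHSC, 0 passed in either direction, and 4 had an unadjusted p under 0.05, all lower. Over all 12149 genes tested in AHSC, 2.33% passed, which is 283 genes, and 2161 had an unadjusted p under 0.05. Tyrobp had 766 and 787 FPKM with control and 744 and 773 FPKM with auranofin, and Fcer1g had 365 and 343 FPKM against 337 and 338 FPKM. Syk had 45.9 and 46.4 FPKM against 41.7 and 43.1 FPKM, a log2 difference of -0.12 with a standard error of 0.04 (adjusted p = 0.177 from limma). Card9 had 10.4 and 10.9 FPKM against 9.20 and 9.52 FPKM, a log2 difference of -0.17 with a standard error of 0.05 (adjusted p = 0.151 from limma). Both lay below the controls in each auranofin library without passing the test, and groups did not overlap in 50.1% of all genes tested. In BMDM 0 of the 15 passed. The log2 differences between the groups were 0.22 for Tyrobp, -0.02 for Fcer1g, -0.20 for Syk and 0.08 for Card9. Against the control mean, auranofin replicates 1 and 2 differed by 0.36 and 0.08 for Tyrobp and by -0.14 and 0.10 for Fcer1g. For Syk they differed by -0.33 and -0.07, and for Card9 by 0.18 and -0.02.

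Other C-type lectin receptors moved in both directions in AHSC. Of 28 such genes 13 were tested, of which 1, Clec4f, rose and 3 fell, with a median log2 difference of -0.10. Clec4f, the Kupffer cell lectin, rose from 58.6 and 59.2 FPKM to 73.5 and 69.1 FPKM, a log2 difference of 0.27 with a standard error of 0.04 (adjusted p = 0.0395 from limma). It is itself 1 of the 5 Kupffer cell markers, of which no other passed. Most of their sum came from Cd5l, with 1474 and 1499 FPKM against 1657 and 1577 FPKM. Vsig4 had 251 and 261 FPKM against 253 and 249 FPKM, and Timd4 had 0.568 and 0.610 FPKM against 0.262 and 0.290 FPKM. Their part in the rise of Clec4f was not tested. Clec12a, an inhibitory receptor for uric acid crystals, fell from 50.6 and 53.4 FPKM to 38.1 and 36.6 FPKM, and Clec4g from 20.2 and 20.4 FPKM to 15.2 and 14.2 FPKM. Clec4g is known from the sinusoidal endothelium of the liver. The mannose receptor Mrc1 fell from 88.9 and 86.3 FPKM to 69.5 and 74.2 FPKM. In each of these 4 genes, named because they passed the test, the groups did not overlap, as in 50.1% of all genes tested. Clec4f and Mrc1 no longer passed when auranofin replicate 1 was left out.

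Of 14 other TREM, CD300 and PILR receptors 9 were tested in AHSC, of which 0 rose and 4 fell, with a median log2 difference of -0.25 beside 0.00 over all genes. Pilra, an inhibitory receptor, fell from 15.3 and 14.4 FPKM to 9.44 and 9.60 FPKM, a log2 difference of -0.59 with a standard error of 0.05 (adjusted p = 0.00727 from limma). Its activating counterpart Pilrb1, which pairs with DAP12, fell from 5.22 and 5.33 FPKM to 3.85 and 3.34 FPKM. Cd300ld fell from 118 and 120 FPKM to 90.7 and 94.7 FPKM, and Cd300c2 from 69.5 and 70.2 FPKM to 58.7 and 58.3 FPKM. Cd300c2 no longer passed when either auranofin replicate was left out, nor did Pilrb1 without auranofin replicate 2 or without control replicate 2.

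**Figure D4:**
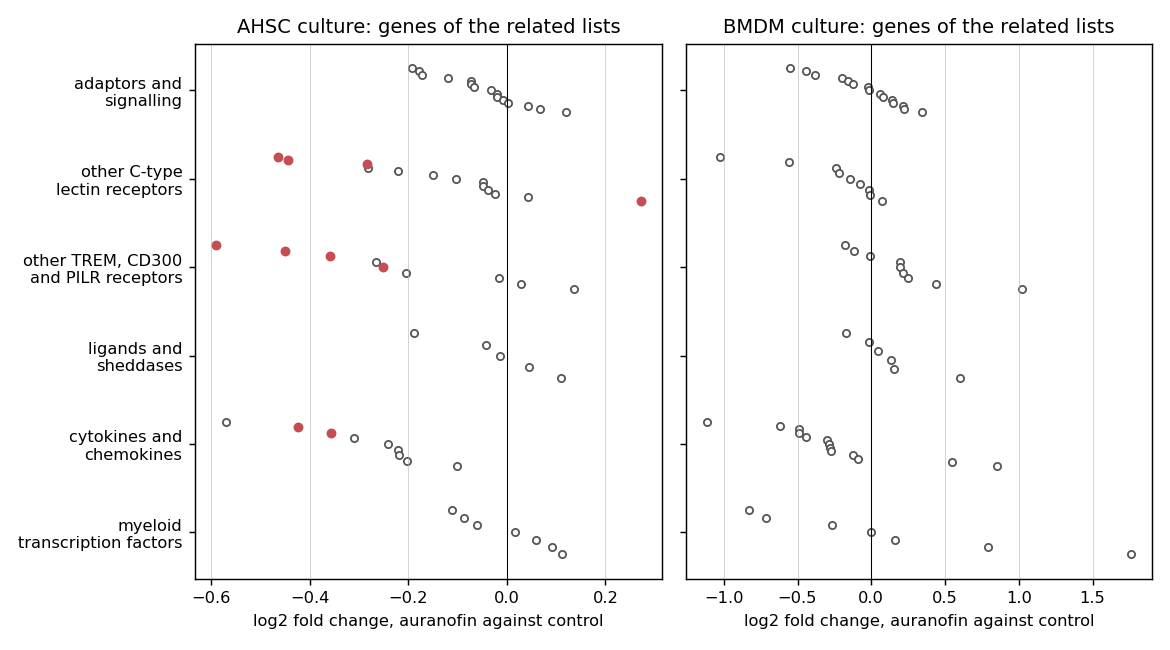
log2 difference between auranofin and control (x) of each tested gene of the 6 related lists (y) in AHSC (left) and BMDM (right, with a wider axis). Each point is 1 gene, filled in red where the adjusted p from limma was under 0.05 and open otherwise. In AHSC 1 filled point lies above 0 and 9 below it, and in BMDM there are none.

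Among genes downstream of Card9 and NF-kB, Ccl2 and Tnf fell in AHSC. Of 13 cytokine and chemokine genes 9 were tested, of which 0 had a positive difference and 2 passed the test. Ccl2, the monocyte chemokine, fell from 198 and 189 FPKM to 139 and 149 FPKM, a log2 difference of -0.42 with a standard error of 0.05 (adjusted p = 0.0149 from limma). Tnf fell from 11.02 and 10.05 FPKM to 7.96 and 8.04 FPKM, with a log2 difference of -0.36 (adjusted p = 0.0429 from limma). Tnf no longer passed when auranofin replicate 1, auranofin replicate 2 or control replicate 1 was left out. The median over the 9 was -0.24. Of 6 genes for ligands and sheddases 5 were tested and 0 passed, with 1 at an unadjusted p under 0.05. Apoe, a ligand of Trem2, had 1891 and 1921 FPKM with control and 1932 and 1843 FPKM with auranofin. Of 7 myeloid transcription factor genes, all tested, 0 passed and 3 had an unadjusted p under 0.05. Spi1, which encodes PU.1, had 118 and 121 FPKM against 114 and 111 FPKM.

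Over the 6 lists, 58 of the 83 genes were tested in AHSC, of which 1 rose and 9 fell. At an unadjusted p under 0.05, 3 were higher and 23 lower. Over all genes tested in AHSC 2.33% passed, 151 of them higher and 132 lower. The lists were chosen with earlier results of these data known, so these counts are a description only. In BMDM 59 were tested, of which 0 passed and 0 had an unadjusted p under 0.05. As for the receptors, nothing is read from the lack of calls in BMDM. With eBayes without a trend 3 of the 10 genes still passed in AHSC, namely Clec4g, Clec12a and Pilra, and with no filter on low values Pilra alone did. In BMDM, as for the receptors, the widest differences came from auranofin replicate 1. They went in both directions, and 23 of the 59 genes tested were higher between the groups. Cebpa, the gene of a myeloid transcription factor, had 0.3799 and 0.505 FPKM with control, 13.9 FPKM in replicate 1 and 0.605 FPKM in replicate 2. Cd300lb had 4.48 and 3.81 FPKM with control, 20.2 FPKM in replicate 1 and 4.11 FPKM in replicate 2. Il12b was lower in that library, with 66.9 and 88.2 FPKM with control, 18.0 FPKM in replicate 1 and 66.9 FPKM in replicate 2. Cd69 had 736 and 740 FPKM with control, 177 FPKM in replicate 1 and 742 FPKM in replicate 2. Cebpa, Cd300lb, Il12b and Cd69 were chosen after their values were seen.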

How the data were processed

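For the 8 libraries a TruSeq Stranded mRNA kit was used. The authors deposited FPKM values in 1 table for AHSC and 1 for BMDM, on mm10, and the submitters' processing notes list CASAVA, FastQC 0.11.7, Trimmomatic 0.38, HISAT2 2.1.0 and StringTie 1.3.4d. Neither table holds counts, so depth was estimated from the spacing of values under 0.2 FPKM, where single fragments show.

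Each table was analysed alone as log2(FPKM + 1). Genes averaging 1 FPKM or more across a table's 4 libraries were tested with limma 3.58.1 (R 4.3.3; lmFit, then eBayes with trend), auranofin against control, with Benjamini-Hochberg adjustment over the table and a threshold of 0.05. An exact permutation test of 2 against 2 libraries cannot go under 0.333. The receptor genes, the 6 related lists and the 8 marker lists were chosen with earlier results of these data known. The genes named are the 10 receptors, 4 adaptors and kinases, up to 5 genes of each related list passing in each direction, and 5 nearest in pattern. On simulated data with 200 genes changed 2-fold, the AHSC fit called 187 of them and 6 unchanged genes, and the BMDM fit 0 and 0. The changed genes were drawn from those averaging at least 5 FPKM. Every simulated library was given the spread pooled over both groups, so the gap between the BMDM auranofin libraries also widened the simulated controls. RefSeq promoters were read by symbol, and 10 of 10 genes matched RefSeq by identifier. Python 3.11.15, pandas 2.3.3 and matplotlib 3.10.9 were used. Alternatives changed 1 choice at a time.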

Additional observations from a re-analysis of the deposited data

How the results depend on the processing

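With 2 libraries a group, and BMDM values that rest on auranofin replicate 1, the spread is poorly known. The low level of Treml4 in BMDM limits what the depth can show, and fragments were not estimated for Clec4n. The pairing by replicate number could not be settled, since with 2 pairs the deviations of same-numbered libraries correlated at 0.109 in AHSC and -0.0551 in BMDM. With the replicate block, 6 related genes passed in AHSC (Clec4g, Clec12a, Cd300c2, Cd300ld, Pilra and Ccl2), against 10 without it, with Clec4f, Mrc1, Pilrb1 and Tnf lost, and 282 of all genes passed against 283. In BMDM the block changed no call.

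Among the related genes in AHSC, 3 passed with eBayes without trend, 1 with no filter on low values and between 6 and 13 when 1 library was left out. Leaving out auranofin replicate 1 gave 6 and control replicate 2 gave 13. With no filter 49 of 18645 genes passed in all. The cause was not tested. In BMDM between 0 and 47 of the related genes and between 0 and 9 of the receptor genes passed when 1 library was left out, with 47 and 9 reached without auranofin replicate 2. The median log2 difference of the receptors ranged between 0.08 and 0.21 in AHSC and between 0.027 and 0.36 in BMDM. In BMDM the sign turned without auranofin replicate 1, and the lowest and highest values with 1 library left out were -0.11 and 0.64 for Clec4n, -0.69 and 0.027 for Clec4a1, -0.39 and 0.033 for Clec4a3, -0.020 and 0.36 for Clec7a, and -0.17 and 0.46 for Trem1. In AHSC the count of receptors at least 1.5-fold higher was 3, and the log2 differences ranged between 1.72 and 1.96 for Treml4, 1.40 and 1.59 for Clec4n and 0.67 and 0.77 for Clec4d when 1 library was left out.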

Other observations

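Other cell types that carry these receptors were followed by their markers. In AHSC the dendritic cell markers listed summed to 40.1 and 45.7 FPKM with control and 33.6 and 38.1 FPKM with auranofin, and 0 of the 3 tested passed limma, with 2 at an unadjusted p under 0.05. The 6 markers of liver endothelial cells summed to 212 and 205 FPKM with control and 219 and 206 FPKM with auranofin. Of these, 3 were lower and 1 passed, Stab2, which fell from 20.7 and 21.5 FPKM to 15.9 and 16.3 FPKM. The lymphocyte markers listed reached at most 0.0781 FPKM in sum. Of the 12 stellate cell markers 10 were lower with auranofin, with a median log2 difference of -0.14, and Acta2 alone passed, with 743 and 737 FPKM after 956 and 965 FPKM. The neutrophil sum of auranofin replicate 2 in AHSC rested on S100a9 with 44.7 FPKM, S100a8 with 23.6 FPKM and Retnlg with 11.1 FPKM. Camp and Ltf were also highest in that library, with 1.46 and 1.35 FPKM. Csf3r had 4.54 FPKM there, between the controls at 5.84 and 3.83 FPKM. Mpo was at 0 there and at most 0.0476 FPKM in any AHSC library.

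In BMDM the neutrophil markers summed to 206 and 213 FPKM with control and 251 and 279 FPKM with auranofin. The Kupffer cell markers summed to between 126 and 147 FPKM, and the dendritic cell markers to between 15.2 and 17.9 FPKM. The endothelial markers summed to between 10.1 and 16.3 FPKM, and the hepatocyte markers to at most 3.53 FPKM. The lymphocyte markers listed summed to at most 0.244 FPKM. Of the 6 neutrophil markers tested in BMDM 0 passed limma, with 2 at an unadjusted p under 0.05.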
